A study of Homo sapiens with 12 samples.

Results

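COL6A1, COL6A2 and COL6A3 encode the 3 main chains of collagen VI, and their RNA levels were compared across 3 prostate cell lines. The chains are 3 of the 58302 genes listed in the expression table. They were taken by gene name and had been chosen by their expression values in these same libraries, which differed strongly between the lines, most of all between PC3 and BPH-1. Their differences between lines are therefore given as a description, without a test. The study sequenced total RNA of BPH-1, a benign prostate epithelial line, and of DU145 and PC3, both prostate cancer (PCa) lines, to find genes that differ between benign and PCa cells. Each line had 4 libraries, was labelled wild-type (WT) and was grown without a treatment in Dulbecco's modified Eagle's medium with 10% fetal bovine serum, penicillin and streptomycin. Each line descends from a single person, so the line and the condition it stands for cannot be told apart. Nothing in the labels says that the 4 libraries of a line came from separate cultures, so the p-values given here measure the spread between libraries, which may be technical.

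Collagen VI is a beaded-filament collagen of the extracellular matrix that surrounds many cell types, with fibroblasts as its best known source. One chain each of COL6A1, COL6A2 and COL6A3 joins inside the cell into a short triple-helical monomer, and monomers pair and stack before secretion. COL6A3 is the longest chain, and in some tissues the minor chains COL6A5 or COL6A6 can take its place. Mutations in the main chains cause the Ullrich and Bethlem muscle diseases.

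COL6A1 (ENSG00000142156) lies on the plus strand of chromosome 21 at 45981737 to 46005050 of GRCh38, and COL6A2 (ENSG00000142173) follows on the same strand at 46098097 to 46132849. The gap between these neighbours is 93.05 kb. COL6A3 (ENSG00000163359) lies on the minus strand of chromosome 2 at 237324003 to 237414375. No other gene in the table overlaps any of these chain genes. In GENCODE 29 the principal transcript has 35 exons and 1028 codons for COL6A1, 28 exons and 1019 codons for COL6A2, and 44 exons and 3177 codons for COL6A3. The helix is the feature that the chains share. It is coded as repeats of 3 codons, each opened by a GGN codon for glycine, and the longest unbroken run held 87 repeats in COL6A1, 87 in COL6A2 and 45 in COL6A3. Counting all runs of at least 5 repeats, the chains held 109, 110 and 110 repeats. To show this shared pattern, the first 90 coding bases of the longest run are printed for COL6A2 and COL6A3. Capitals mark the GGN codon that opens each repeat. Both are spliced stretches of GENCODE 29 across 2 exons. That of COL6A2 spans exons 5 and 6 (plus strand, chr21:46114038-46115925), and that of COL6A3 spans exons 22 and 23 (minus strand, chr2:237357338-237357852).
COL6A2: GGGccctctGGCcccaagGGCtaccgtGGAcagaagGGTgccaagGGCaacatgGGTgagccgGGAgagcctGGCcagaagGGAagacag
COL6A3: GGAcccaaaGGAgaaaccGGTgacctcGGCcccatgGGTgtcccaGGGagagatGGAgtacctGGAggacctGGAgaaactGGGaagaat

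The 250 bases before the RefSeq start (GRCh38.p14) are printed for COL6A2 and COL6A3. The set of promoters used here held none for COL6A1. Capitals mark GGGCGG and TATAAA on either strand, so that CCGCCC is the first motif read from the other strand. The COL6A2 stretch is chr21:46097862-46098111 on the plus strand, and the COL6A3 stretch is chr2:237414165-237414414 on the minus strand.
COL6A2: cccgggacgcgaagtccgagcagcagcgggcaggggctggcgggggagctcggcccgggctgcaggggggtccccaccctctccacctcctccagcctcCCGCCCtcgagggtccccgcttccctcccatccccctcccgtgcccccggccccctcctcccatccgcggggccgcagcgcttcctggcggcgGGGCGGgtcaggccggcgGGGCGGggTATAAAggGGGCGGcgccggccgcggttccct
COL6A3: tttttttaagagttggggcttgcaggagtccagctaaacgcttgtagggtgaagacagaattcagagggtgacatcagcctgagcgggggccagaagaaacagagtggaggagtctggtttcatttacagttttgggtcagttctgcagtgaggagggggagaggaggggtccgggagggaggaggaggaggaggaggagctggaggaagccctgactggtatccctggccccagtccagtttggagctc
The COL6A2 stretch held GGGCGG 4 times and TATAAA once, the latter beginning 32 bases before the start, and its GC content was 79.6% with 28 CG pairs. The COL6A3 stretch held neither motif and had a GC content of 56.0% with 3 CG pairs. Most of that stretch lies inside the gene as located above, which on the minus strand begins at 237414375. The COL6A2 stretch lies mostly before its gene, which begins at 46098097. The stretches are thus not placed alike against the annotated genes. Of 35116 RefSeq promoters cut to the same 250 bases, 42.6% held GGGCGG and 10.7% held TATAAA, and the medians were 58.0% GC and 11 CG pairs.

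Expression was read as FPKM, in which the reads of a gene are scaled to its length and to the depth of the library. The length here sums all distinct exons of a gene, overlapping ones included. For COL6A1, COL6A2 and COL6A3 it was 7415, 8107 and 26019 bases, against 4238, 3461 and 10749 in the principal transcript. Levels, places and shares set side by side between genes are therefore approximate. The 12 libraries held 12950665 to 16309559 reads as recovered from the values. Summed FPKM was lower in BPH-1 (246960 ± 2986, SD, n = 4) than in DU145 (293757 ± 5858, SD, n = 4) or PC3 (298496 ± 5975, SD, n = 4). For genes other than the chains, a gene was called when limma on log2(FPKM + 1) gave a Benjamini-Hochberg adjusted p under 0.05. That held for 67.6% of 16408 genes in PC3 against BPH-1 (27.1% higher, 40.4% lower), for 62.7% of 17016 in DU145 against BPH-1 (30.3% higher, 32.4% lower) and for 48.3% of 16420 in PC3 against DU145 (20% higher, 28.3% lower), so a call by itself sets few genes apart. The median difference over all tested genes was -0.13, -0.03 and -0.05 log2 units in these comparisons. Giving every library the same FPKM sum moved the first pair of medians to -0.28 and -0.17, and upper-quartile scaling moved them to 0.11 and 0.14. In PC3 against BPH-1 the 4452 higher and 6633 lower calls became 3432 and 8025 with equal sums and 6205 and 4910 under upper-quartile scaling, and in DU145 against BPH-1 the 5160 and 5506 became 4100 and 6625 with equal sums and 6095 and 4521 under upper-quartile scaling. The comparisons share libraries, since each line enters 2 of them. Below, ± after an FPKM value or a share is the SD over the 4 libraries of a line. For genes other than the chains, ± after a log2 difference is the limma standard error (SE). Among 8 epithelial markers, all had a mean of at least 1 FPKM in BPH-1, 3 in DU145 and 4 in PC3. The DU145 libraries fell into pairs for some genes of very low level. Of 19817 protein-coding genes, 72 held at most 3 reads in DU145 replicates 1 and 2 and more in both replicates 3 and 4, and 235 showed the reverse. Some genes of higher level split DU145 otherwise, into replicates 1 and 3 against replicates 2 and 4. ITGB1 had 28.4, 124, 16.5 and 105 FPKM in replicates 1 to 4, and ANTXR1 had 23.4, 51.3, 19.2 and 44.2. P4HA1 and MATN2, given below, split likewise. How many genes did so was not counted, and no fit was made with these pairs.

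COL6A1 gives the alpha-1 chain and was detected in every library. In BPH-1 its FPKM was 3.16, 6.93, 3.66 and 5.30 in replicates 1 to 4. DU145 gave 29.4, 22.9, 38.2 and 28.1, and PC3 gave 392.1, 330.1, 367.9 and 374.6. The 3 lines formed separate ranges, with every DU145 library above every BPH-1 library and every PC3 library above both. The means were 4.76 ± 1.71, 29.7 ± 6.35 and 366.2 ± 26.1 FPKM (SD, n = 4 each) for BPH-1, DU145 and PC3. Among 19817 protein-coding genes ordered by mean FPKM, COL6A1 was in place 5590 in BPH-1, 875 in DU145 and 35 in PC3. In bulk RNA, a change in the share of cells that make a transcript and a change in RNA per cell cannot be told apart.

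COL6A2 gives the alpha-2 chain. Its FPKM was 0.248, 0.784, 0.270 and 0.285 in BPH-1, from 31 to 97 reads a library. DU145 gave 39.6, 23.5, 42.4 and 32.5, and PC3 gave 206.0, 203.6, 194.4 and 211.7. Again the lines did not overlap, and BPH-1 replicate 2 stood above the other 3 BPH-1 libraries, as it did for COL6A1. Mean COL6A2 was 0.397 ± 0.259, 34.5 ± 8.45 and 203.9 ± 7.21 FPKM (SD, n = 4 each) in BPH-1, DU145 and PC3, which put it in places 11944, 744 and 72 among protein-coding genes.

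COL6A3 gives the long alpha-3 chain and was the lowest of the chains in every library. BPH-1 held 5, 6, 4 and 2 reads of it (0.0125, 0.0151, 0.0099 and 0.0049 FPKM). DU145 held 3, 3, 41 and 35 reads (0.0071, 0.0071, 0.102 and 0.1003 FPKM), and PC3 held 1494, 1120, 778 and 1028 reads (4.43, 3.14, 2.16 and 3.05 FPKM). Only the PC3 libraries were clear of the others: DU145 replicates 1 and 2 lay within the BPH-1 range and replicates 3 and 4 above it. Some fibroblast-related genes, picked after their values were seen, had the same split: DU145 replicates 1 to 4 held 0, 0, 102 and 51 reads of DCN, 0, 0, 34 and 30 of the collagen I chain COL1A2, 0, 0, 52 and 24 of THY1, and 0, 0, 8 and 9 of LUM. LUM was also read in BPH-1 replicates 2 and 4 (20 and 18 reads). Other fibroblast and muscle markers did not have this split. DU145 replicates 1 to 4 held 87, 45, 98 and 44 reads of PDGFRB and 259, 154, 290 and 174 of TWIST2. ACTA2 held 57, 42, 67 and 48 there, and FAP, POSTN and PRRX1 had 0 reads in DU145. Some basal epithelial genes had the reverse split, with 45, 66, 3 and 0 reads of KRT5 and 13, 21, 1 and 0 of KRT14. TP63 held 9, 11, 3 and 0. The part of these differences between the DU145 libraries in the COL6A3 values was not tested. The means were 0.0106 ± 0.0043, 0.0541 ± 0.0543 and 3.19 ± 0.938 FPKM (SD, n = 4 each). In PC3, where COL6A1 and COL6A2 were among the 72 most abundant protein-coding genes, COL6A3 was in place 6065.

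**Figure D1:**
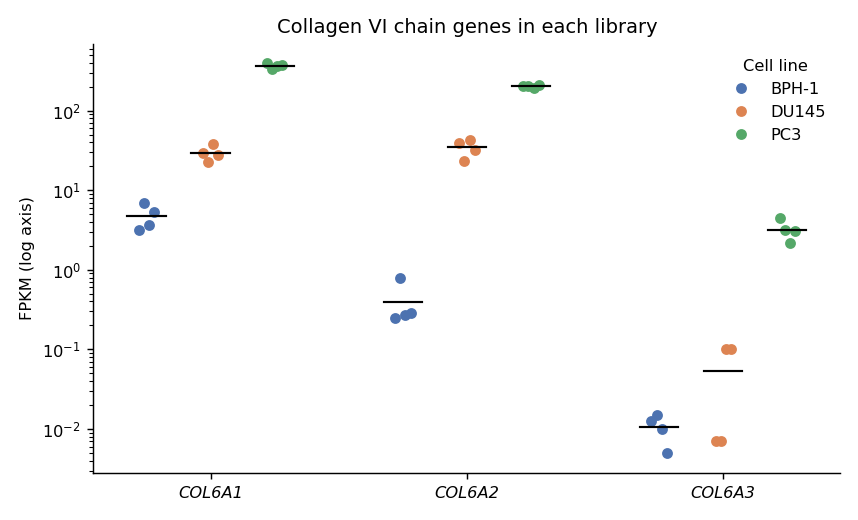
FPKM of each collagen VI chain in the 12 libraries on a log axis, one point a library and a bar at the mean of each line. COL6A1 and COL6A2 separate all 3 lines, with PC3 means of 366.2 and 203.9, while the DU145 libraries of COL6A3 span 0.0071 to 0.102 and reach into the BPH-1 range.

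The ratio of mean FPKM between PC3 and BPH-1 was 76.9 for COL6A1, 514 for COL6A2 and 301 for COL6A3. The extremes of the libraries bound these ratios at 47.7 to 124, 248 to 854 and 143 to 900 (lowest PC3 over highest BPH-1, and the reverse). For COL6A3, whose 4 BPH-1 libraries held 17 reads in all, the exact 95% counting interval of the ratio was 188 to 518; such intervals cover counting error only. Between DU145 and BPH-1 the ratios were 6.23 (3.31 to 12.1 over the libraries) for COL6A1 and 87.0 (29.95 to 171) for COL6A2. COL6A3 gave 5.11, but its range of 0.468 to 20.7 included 1, and it did not reach the minimum of reads for the test between these lines. On a log2 scale that ratio was 2.35 over all DU145 libraries, -0.58 with DU145 replicates 1 and 2 only and 3.26 with replicates 3 and 4 only. PC3 exceeded DU145 by 12.4 for COL6A1 (8.64 to 17.1), by 5.91 for COL6A2 (4.59 to 9.02) and by 59.0 for COL6A3 (21.1 to 627). The log2 of the last was 5.88, and it was 8.82 with DU145 replicates 1 and 2 only and 4.98 with replicates 3 and 4 only. The step from BPH-1 to DU145 was thus larger for COL6A2 than for COL6A1, and that from DU145 to PC3 was larger for COL6A1, while the COL6A3 difference between DU145 and PC3 was larger than that between BPH-1 and DU145 with either pair of DU145 libraries. On the log2 FPKM scale the PC3 and BPH-1 means differed by 6.33 ± 0.26, 9.19 ± 0.39 and 8.30 ± 0.41 (SE, n = 4 and 4) for COL6A1, COL6A2 and COL6A3.

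All 3 chains lay above BPH-1 in every PC3 library, where 25.8% of tested genes did so. Both chains that passed the filter did so in DU145, where 28.8% of tested genes did, and all 3 lay above DU145 in every PC3 library, where 19.1% did. Since the chains were picked for these levels, nothing is read from those counts. When the libraries were rescaled, corrected for GC content or left out in turn, no direction turned; with DU145 replicates 1 and 2 only, that of COL6A3 between DU145 and BPH-1 did, as given above. The log2 ratio of mean FPKM between PC3 and BPH-1 stayed between 5.72 and 6.70 for COL6A1 and between 8.46 and 9.57 for COL6A2. For COL6A3 it was 4.90 with 0.1 added to each FPKM and between 7.86 and 8.64 under the other alternatives. The lowest COL6A1 value came from the GC correction. GC content, taken over all annotated transcripts of a gene, was 63.6% for COL6A1, 65.3% for COL6A2 and 52.3% for COL6A3.

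The balance of the chains also differed between the lines. COL6A1 over COL6A2, as the ratio of FPKM within each library, was 12.7, 8.84, 13.5 and 18.6 in BPH-1, between 0.742 and 0.977 in DU145 and between 1.62 and 1.90 in PC3. COL6A1 thus led in all BPH-1 and PC3 libraries and COL6A2 led narrowly in all DU145 libraries. The size of the ratio depends on the gene length behind the FPKM: the ratio of means in PC3 was 1.795 as deposited, 1.66 with overlapping exons merged and 1.34 with the length of the principal transcript, and that in DU145 was 0.860, 0.793 and 0.642. A length applies to all lines alike, so the order of the lines does not depend on it. COL6A1 over COL6A3 was 88.4 to 171 in PC3, 253 to 1076 in BPH-1 and 280 to 4131 in DU145. No library came near equal levels of COL6A3 and the other chains.

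**Figure D2:**
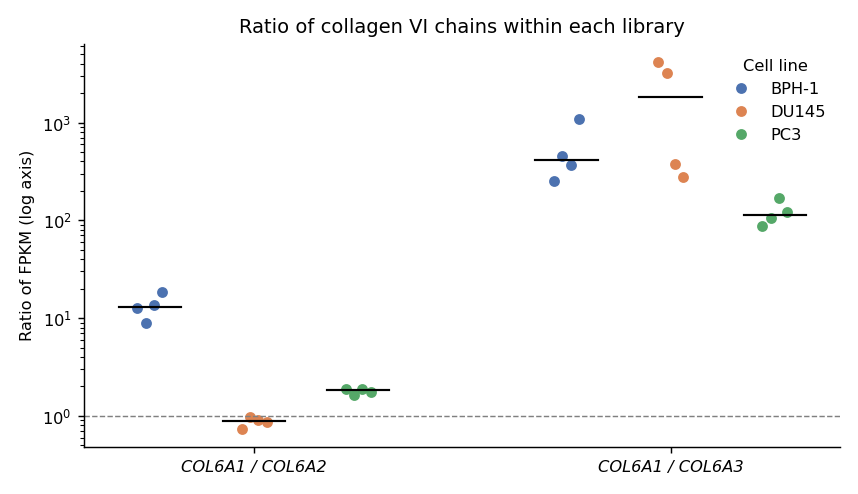
Ratio of the FPKM of 2 chains within each library on a log axis, one point a library, by line. COL6A1 over COL6A2 was 8.84 to 18.6 in BPH-1, 0.742 to 0.977 in DU145 and 1.62 to 1.90 in PC3.

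Within the lines, the chains that are neighbours on chromosome 21 moved together more than either did with COL6A3. The correlation of log2 FPKM deviations from the line mean was 0.845 between COL6A1 and COL6A2, 0.305 between COL6A1 and COL6A3 and 0.321 between COL6A2 and COL6A3, over 12 libraries. These values are a description, since the points share library and base composition, and the COL6A3 deviations rest on a few reads in BPH-1 and DU145.

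Collagen VI chains made up most of the collagen RNA in PC3. Their share of the summed FPKM of 44 collagen genes was 1.45% to 3.03% in BPH-1, 23.7% to 25.7% in DU145 and 82.1% to 85.1% in PC3. COL6A1 alone took 53.3% ± 1.95 of collagen FPKM in PC3, 11.6% ± 0.527 in DU145 and 2.08% ± 0.650 in BPH-1 (SD, n = 4 each). The leading collagen in BPH-1 was COL17A1, the transmembrane collagen of hemidesmosomes, with 42.1% ± 1.86, and in DU145 it was COL4A2, a basement membrane chain, with 43.3% ± 2.71. The other 41 collagen genes together summed to 222.7 ± 20.7 FPKM in BPH-1, 191.1 ± 37.6 in DU145 and 112.5 ± 6.24 in PC3, so the larger collagen sum of PC3 (685.8 ± 26.3 FPKM, against 227.8 ± 21.8 in BPH-1) lay in the collagen VI chains.

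**Figure D3:**
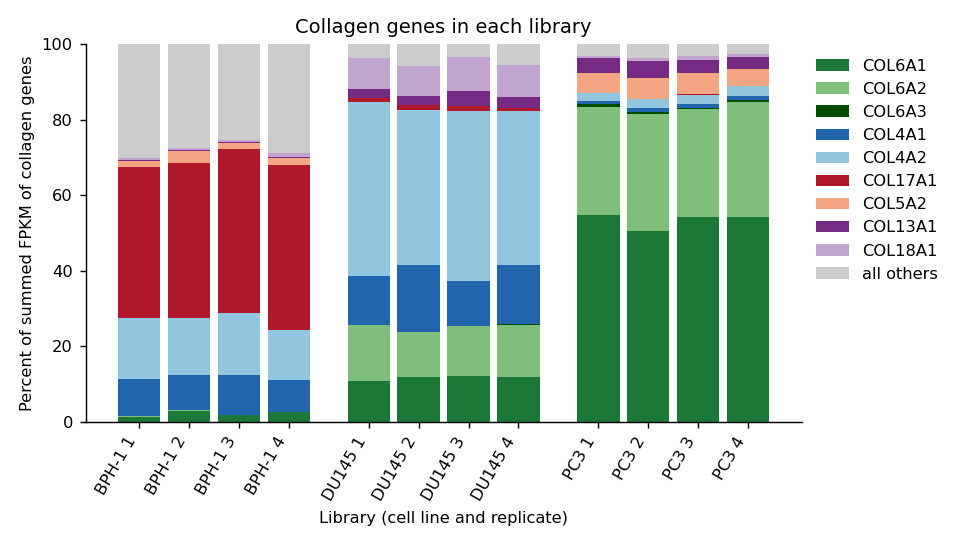
Share of the summed FPKM of 44 collagen genes taken by the leading genes in each of the 12 libraries (stacked bars from 0 to 100%). The collagen VI chains took 82.1% to 85.1% in PC3, 23.7% to 25.7% in DU145 and 1.45% to 3.03% in BPH-1.

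The minor chains were near the limit of detection. COL6A5 held at most 12 reads in a library (0 to 0.0691 FPKM), COL6A6 held 0 to 2 reads and the pseudogene COL6A4P2 was at 0 throughout. The pseudogene COL6A4P1 was read in all DU145 libraries (30, 34, 16 and 28 reads, 0.164 to 0.331 FPKM), in no BPH-1 library and by 1 read in PC3. It was the only minor chain gene with enough reads for a test, and it had them through the DU145 libraries alone. It was higher in DU145 than in BPH-1 by 0.35 ± 0.05 on the log2(FPKM + 1) scale (limma, adjusted p = 0.000193). In PC3 it was lower than in DU145 by 0.35 ± 0.05 (limma, adjusted p = 0.000402). Since a gene absent from the other lines could pass the filter only by being high in DU145, these p-values add nothing to its reads. COL6A5 and COL6A6 together thus stayed far below COL6A3 in PC3, and in BPH-1 COL6A5 (0.0361 ± 0.023 FPKM, SD, n = 4) and COL6A3 were both at a few reads.

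Collagen chains are hydroxylated, glycosylated and folded in the endoplasmic reticulum before they leave the cell. Of 22 genes for these steps and for export and cleavage, all were tested. Between PC3 and BPH-1, 18 passed the test, 9 higher and 9 lower in PC3, where 67.6% of all genes passed; upper-quartile scaling gave 11 higher and 6 lower. DU145 had 6 genes above and 4 below BPH-1, where 62.7% of all genes passed, and PC3 had 4 above and 8 below DU145, where 48.3% did. The list median was 0.10 in both comparisons with BPH-1, beside all-gene medians of -0.13 and -0.03.

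CRTAP, part of the prolyl 3-hydroxylase complex, was higher than in BPH-1 (12.3 ± 1.65 FPKM) in both PCa lines, at 54.6 ± 5.17 in DU145 and 66.4 ± 1.69 in PC3 (log2 differences 2.06 ± 0.15 and 2.35 ± 0.11, limma adjusted p = 3.08e-06 and 1.62e-07). P4HA1, the catalytic subunit of prolyl 4-hydroxylase, was 57.6 ± 13.4 FPKM in PC3 and 18.5 ± 3.41 in BPH-1 (log2 difference 1.57 ± 0.20, limma adjusted p = 9.33e-05). In DU145, P4HA1 was split, with 6.10 and 3.75 in replicates 1 and 3 and 19.1 and 21.8 in replicates 2 and 4, and it did not pass against BPH-1 (limma adjusted p = 0.162). Its partner P4HB, also known as protein disulfide isomerase, was higher in PC3 (85.5 ± 20.2 FPKM) than in BPH-1 (44.5 ± 2.72; limma adjusted p = 0.000519). COLGALT2, a collagen galactosyltransferase, was nearly absent from BPH-1 (at most 2.46 recovered reads a library) and reached 3.45 ± 0.634 FPKM in DU145 and 1.15 ± 0.283 in PC3. By contrast P3H2, a prolyl 3-hydroxylase, was lower in PC3 (1.27 ± 0.376 FPKM) than in BPH-1 (12.9 ± 0.690; log2 difference -2.63 ± 0.13, limma adjusted p = 2.99e-07), as MMP14, a membrane-bound collagenase, was in DU145 (11.9 ± 3.47 against 91.3 ± 38.4; -2.79 ± 0.28, limma adjusted p = 2.03e-05). PPIB, the cyclophilin of the same complex as CRTAP, was the most abundant of the list at 205.4 ± 15.7 FPKM in BPH-1, 132.5 ± 48.8 in DU145 and 147.2 ± 29.9 in PC3. Its lower call in PC3 (limma adjusted p = 0.0151) was lost under upper-quartile scaling and in a single fit over all lines.

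Of 10 collagen receptors, 9 were tested between PC3 and BPH-1, and 2 were higher and 4 lower in PC3, where 27.1% and 40.4% of all genes were; upper-quartile scaling gave 4 and 3, and the GC correction 3 and 3. DU145 had 5 receptors above and 3 below BPH-1 of 10 tested, where 30.3% and 32.4% of all genes were. With 10 reads asked of every library, 4 receptors were called in each comparison with BPH-1. PC3 had 4 above and 4 below DU145, beside 20% and 28.3% of all genes. Those counts were 3 and 2 without DU145 replicate 4, and 1 and 2 with DU145 replicates 3 and 4 only. ANTXR2, an anthrax toxin receptor that binds collagen VI and takes it up, was 23.4, 32.6, 29.4 and 12.8 FPKM in PC3, against 1.79 ± 0.206 in BPH-1 and 1.42 ± 0.746 in DU145. Every PC3 library was above every other library, and the log2 differences were 3.12 ± 0.25 to BPH-1 (limma adjusted p = 5.49e-06) and 3.37 ± 0.32 to DU145 (limma adjusted p = 3.11e-05). Its relative ANTXR1 was higher in DU145 (34.5 ± 15.6 FPKM) than in BPH-1 (14.6 ± 0.504 FPKM, limma adjusted p = 0.00857), and in PC3 was 16.4 ± 4.84. The DU145 libraries of ANTXR1 split as those of P4HA1 did.

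CSPG4, the NG2 proteoglycan that binds collagen VI at the cell surface, went opposite ways in the PCa lines. It was 11.0 ± 3.01 FPKM in BPH-1, 28.3 ± 7.72 in DU145 and 1.69 ± 0.573 in PC3, with log2 differences to BPH-1 of 1.28 ± 0.25 and -2.14 ± 0.21 (limma adjusted p = 0.00123 and 1.85e-05). ITGB1, the beta subunit shared by the collagen-binding integrins, varied widely within lines, at 28.4, 124, 16.5 and 105 FPKM in DU145 and 33.6 to 127 in PC3. In DU145 it had the split of P4HA1 and ANTXR1. None of the ITGB1 comparisons passed the test. ITGA2, the alpha-2 integrin subunit, was lower in DU145 (0.329 to 5.10 FPKM) than in BPH-1 (10.7 to 31.4; log2 difference -3.04 ± 0.48, limma adjusted p = 0.000373), and the collagen receptor kinase DDR1 was lower than in BPH-1 (7.86 ± 1.95 FPKM) in both DU145 (2.11 ± 0.773, limma adjusted p = 0.000303) and PC3 (3.48 ± 0.615, limma adjusted p = 0.00092).

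Matrix proteins that bind collagen VI were tested next, and 8 of 8 tested (of 12 listed) differed between PC3 and BPH-1, 4 in each direction, where 67.6% of all genes differed. Between DU145 and BPH-1, 5 were higher and 3 lower of 9 tested, beside 62.7% of all genes, and 3 were higher and 1 lower of 7 between PC3 and DU145, beside 48.3%. Genes nearly absent from 1 line could enter these counts through the other line. With 10 reads asked of every library, 5 were called between PC3 and BPH-1, 3 higher and 2 lower. Between DU145 and BPH-1 4 were then called. HSPG2 codes for perlecan, a basement membrane proteoglycan, and was 7.29 ± 3.66 FPKM in BPH-1, 22.4 ± 4.13 in DU145 and 40.6 ± 9.31 in PC3. Its log2 differences to BPH-1 were 2.40 ± 0.29 in PC3 and 1.58 ± 0.29 in DU145 (limma adjusted p = 6.66e-05 and 0.00101). TNXB, tenascin-X, was near 0 in BPH-1 (0.133 ± 0.062 FPKM) and 4.96 ± 1.15 in PC3 (2.37 ± 0.15, limma adjusted p = 1.18e-06). FN1, fibronectin, was lower in both, at 0.767 ± 0.240 FPKM in DU145 and 8.60 ± 1.90 in PC3 against 79.5 ± 39.6 in BPH-1 (log2 differences -5.36 ± 0.35 and -2.93 ± 0.36, limma adjusted p = 1.53e-06 and 7.14e-05). VWA1, a von Willebrand A domain matrix protein that binds perlecan and collagen VI, was also lower in both (8.70 ± 1.17, 1.40 ± 0.456 and 1.97 ± 0.231 FPKM in BPH-1, DU145 and PC3). The small proteoglycans DCN and BGN had means of at most 0.234 FPKM in any line. The matrilin MATN2 was 1.03 ± 0.670, 4.22 ± 2.48 and 2.77 ± 0.475 FPKM in BPH-1, DU145 and PC3, and was higher than in BPH-1 in both PCa lines (log2 differences 1.27 in DU145 and 0.93 in PC3, limma adjusted p = 0.0116 and 0.0032), though the DU145 call was lost with DU145 replicates 3 and 4 only. In DU145, MATN2 was 2.89 and 1.49 FPKM in replicates 1 and 3 and 6.96 and 5.565 in replicates 2 and 4. MATN3, another matrilin, was also higher in both PCa lines, by 0.45 in DU145 and 0.39 in PC3 (limma adjusted p = 0.00278 and 0.00929).

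**Figure D4:**
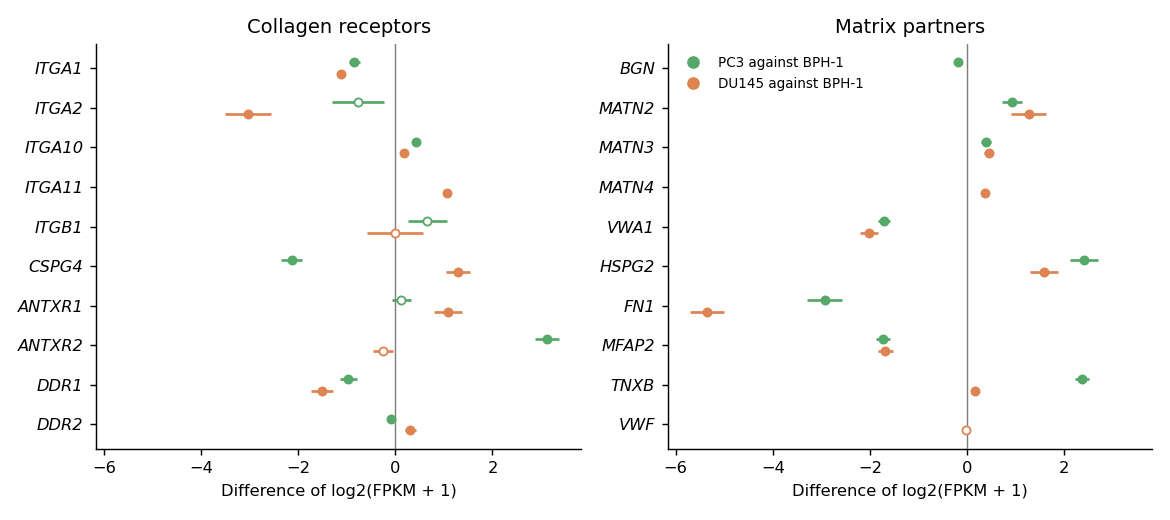
Difference of log2(FPKM + 1) from BPH-1 for collagen receptors (left) and matrix partners (right) in PC3 and DU145, with bars of 1 SE; filled points passed the limma test at an adjusted p under 0.05, and genes without enough reads have no point. ANTXR2 stands at 3.12 in PC3 alone, and CSPG4 at -2.14 in PC3 and 1.28 in DU145.

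Other collagens did not follow the collagen VI chains as a group. Of 39 listed, 20 had enough reads between PC3 and BPH-1, and 5 were higher and 9 lower in PC3. Over all genes 27.1% were higher and 40.4% lower. The median difference was -0.16, beside -0.13 over all genes. With equal FPKM sums the counts were 4 and 13, and under upper-quartile scaling 8 and 9. In DU145, 8 were higher and 12 lower than in BPH-1 of 21 tested, beside 30.3% and 32.4% of all genes. After the GC correction the counts were 5 and 12. The median there was -1.24, beside -0.03 over all genes. PC3 against DU145 gave 7 in each direction of 22, beside 20% and 28.3% of all genes. COL13A1, a transmembrane collagen, had the same order of lines as COL6A1, at 0.474 ± 0.0999, 7.46 ± 3.33 and 25.0 ± 3.55 FPKM in BPH-1, DU145 and PC3. COL5A2, a chain of fibrillar collagen V, was 4.64 ± 2.29 FPKM in BPH-1, 0.156 ± 0.041 in DU145 and 36.2 ± 3.64 in PC3, so that it was higher in PC3 and lower in DU145 (log2 differences 2.79 ± 0.23 and -2.21 ± 0.23, limma adjusted p = 7.07e-06 and 2.82e-05). The basement membrane chains COL4A1 and COL4A2 went the other way, highest in DU145 (36.3 ± 1.26 and 111.3 ± 28.4 FPKM) and lowest in PC3 (6.62 ± 0.685 and 16.8 ± 1.62). COL17A1 and COL7A1, which anchor epithelium to its basement membrane, were 95.7 ± 6.47 and 12.6 ± 3.17 FPKM in BPH-1, and were at most 3.801 and 0.828 in any PCa library.

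Fibroblast and muscle markers were checked because fibroblasts are the usual source of collagen VI. Their summed FPKM over 11 genes was 10.2 to 14.3 in BPH-1, 6.03 to 12.5 in DU145 and 2.20 to 5.72 in PC3. TWIST2 made up most of these sums in BPH-1 and DU145. Without it, the other 10 genes summed to 3.77 to 4.81 FPKM in BPH-1, 1.01 to 2.52 in DU145 and 1.297 to 4.36 in PC3, so that PC3 overlapped both other lines. In DU145, THY1 and LUM were read only in replicates 3 and 4, the libraries with more than 3 reads of COL6A3. PDGFRB, TWIST2 and ACTA2 were read in all DU145 libraries. In PC3, THY1, FAP, LUM, POSTN, PRRX1 and MYH11 held at most 3 reads in every library. Of the 5 markers tested between PC3 and BPH-1, 1 was higher and 3 lower, beside 27.1% and 40.4% of all genes. The one higher was PDGFRA, a growth factor receptor of fibroblasts, at 1.84, 3.23, 2.44 and 0.475 FPKM in PC3 and at most 0.0336 in BPH-1 (limma adjusted p = 0.000973). With 10 reads asked of every library, only 1 marker was called between these lines, lower in PC3. TWIST2, a mesenchymal transcription factor, was 8.11 ± 2.11, 7.61 ± 2.14 and 1.14 ± 0.247 FPKM in BPH-1, DU145 and PC3, and the smooth muscle actin ACTA2 was at most 1.24 in any library. Epithelial markers summed to 447.5 to 615.6 FPKM in BPH-1, 85.1 to 163.2 in DU145 and 219.8 to 367.4 in PC3. KRT5 and KRT14, the basal keratins, led them in BPH-1 (146.9 ± 29.6 and 202.7 ± 37.8 FPKM), and KRT19, a simple epithelial keratin, led them in PC3 (231.6 ± 58.9). EPCAM was 60.8 ± 2.28, 0.376 ± 0.169 and 9.1 ± 1.81 FPKM in BPH-1, DU145 and PC3, and CDH1 was 28.4 ± 12.2, 0.180 ± 0.094 and 0.786 ± 0.440. Of the 8 epithelial markers, 1 was higher and 5 lower than in BPH-1 in each PCa line. Over all genes 27.1% and 40.4% were in PC3, and 30.3% and 32.4% in DU145. With 10 reads asked of every library, 3 were called in each line. Whether these markers have a part in the chain levels was not tested.

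The protein-coding genes within 500 kb were compared to see how the chains stand among their neighbours. Of 12 beside COL6A1 and COL6A2, 10 were tested against BPH-1, and 8 were higher and 0 lower in PC3, where 27.1% of all genes were higher. The count in PC3 was 5 with equal FPKM sums, after the GC correction or with 10 reads asked of every library. It was 10 under upper-quartile scaling. In DU145 8 were higher and 0 lower, where 30.3% of all genes were higher; equal sums and the GC correction each gave 6 higher and 1 lower. The genes differed in size of change. PCBP3, an RNA-binding protein gene 39.28 kb before COL6A1, was 0.0295 ± 0.0106 FPKM in BPH-1, 0.576 ± 0.140 in DU145 and 0.548 ± 0.119 in PC3. No BPH-1 library held more than 7 of its reads, so PCBP3 passed the filter against BPH-1 through the PCa lines alone. FTCD, a liver enzyme gene 3.413 kb after COL6A2, stayed at 26 reads or fewer in every library. SPATC1L, a spermatogenesis-associated gene 28.3 kb after COL6A2, was 6.15, 4.42, 6.98 and 4.25 FPKM in DU145 and 15.02, 14.2, 16.1 and 15.5 in PC3, while no BPH-1 library held more than 2 of its reads (log2 differences 2.63 ± 0.16 and 3.98 ± 0.10, limma adjusted p = 1.02e-06 and 8.90e-09). It passed the filter against BPH-1 through the PCa lines alone, so these p-values add little to its reads. COL18A1, a basement membrane collagen 468.0 kb before COL6A1, was 1.78 ± 0.294, 21.8 ± 5.69 and 6.11 ± 0.5125 FPKM in BPH-1, DU145 and PC3. The other 7 had log2 differences to BPH-1 of -0.48 to 1.52.

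Between PC3 and DU145, 2 of 11 neighbours tested were higher and 3 lower, against 48.3% of all genes called. That count was 3 with either pair of DU145 libraries alone, without DU145 replicate 1, without PC3 replicate 2 and without PC3 replicate 3, and median-of-ratios or upper-quartile scaling gave 2 higher and 1 lower. SPATC1L was one of the higher genes, as COL6A1 and COL6A2 were (1.35 ± 0.17, limma adjusted p = 0.000156). Beside COL6A3, 2 genes were higher and 3 lower in PC3 than in BPH-1 of 6 tested, where 27.1% and 40.4% of all genes were, and 1 was higher and 3 lower in DU145, where 30.3% and 32.4% were. Between PC3 and DU145, 2 were higher and 1 lower of 5, beside 20% and 28.3% of all genes. RAMP1, a partner protein of calcitonin-family receptors 444.5 kb from COL6A3, was 2.17 ± 0.301 FPKM in BPH-1, 0.0371 ± 0.0544 in DU145 and 40.3 ± 8.19 in PC3 (log2 differences to BPH-1 of 3.69 in PC3 and -1.61 in DU145, limma adjusted p = 8.60e-08 and 1.09e-06). DU145 replicates 1 to 4 held 0, 0, 4 and 1 of its reads, so between DU145 and BPH-1 it passed the filter through BPH-1 alone. MLPH, the melanosome linker melanophilin 71.05 kb from the COL6A3 start, was 0.388 ± 0.151, 0.865 ± 0.208 and 8.85 ± 0.480 FPKM in BPH-1, DU145 and PC3 (2.83 ± 0.12 in PC3 against BPH-1, limma adjusted p = 9.18e-08). COPS8, a COP9 signalosome subunit on the other side, was 4.45 ± 1.25, 1.83 ± 0.937 and 2.82 ± 0.779 FPKM, and its lower call in DU145 (limma adjusted p = 0.0113) was lost after the GC correction and with DU145 replicates 1 and 2 only.

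**Figure D5:**
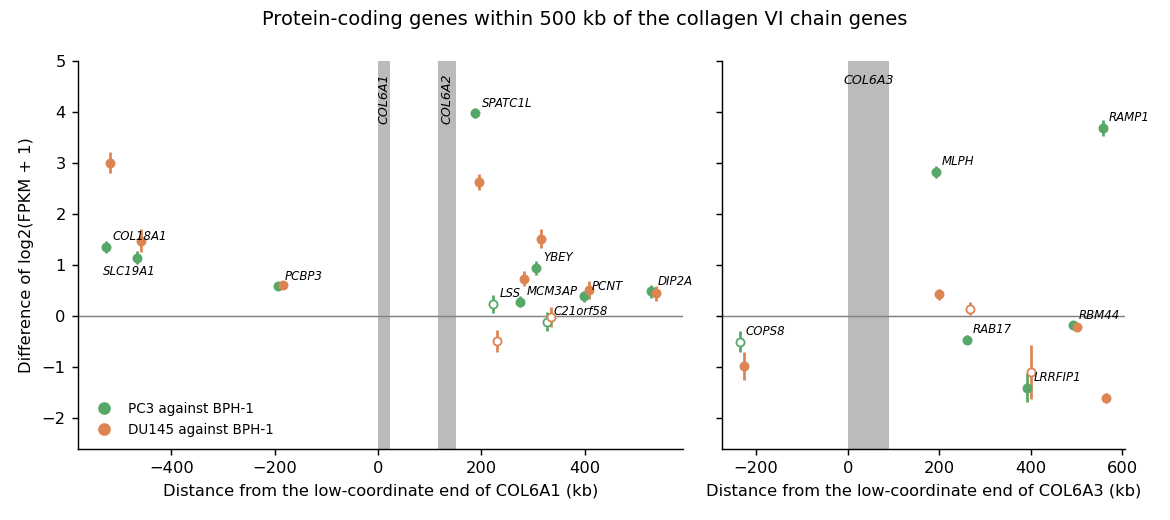
Difference of log2(FPKM + 1) from BPH-1 for protein-coding genes within 500 kb of COL6A1 and COL6A2 (left) and of COL6A3 (right), by distance in kb, with bars of 1 SE; grey bands are the chain genes and filled points passed the limma test. SPATC1L, 28.3 kb from COL6A2, stands at 3.98 in PC3 and 2.63 in DU145.

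Some genes elsewhere followed the chains closely. Likeness was the Pearson correlation of log2(FPKM + 1) over the 12 libraries, among 10838 protein-coding genes with at least 100 reads on average. With 3 lines, it mostly measures the order and spacing of the line means, and 176, 168 and 137 genes had an r above 0.95 with COL6A1, COL6A2 and COL6A3. The chains themselves had an r of 0.96 (COL6A1 and COL6A2), 0.91 (COL6A1 and COL6A3) and 0.78 (COL6A2 and COL6A3). Most like COL6A1 was NDST2, a heparan sulfate sulfotransferase (r = 0.994; 2.36 ± 0.406, 4.63 ± 0.725 and 9.97 ± 0.576 FPKM in BPH-1, DU145 and PC3), followed by TTYH2, FCHO1, CTHRC1 and SLC16A3. CTHRC1 is a secreted protein with a short collagen-like stretch and reached 7.62 ± 1.15 FPKM in PC3, from 0.291 ± 0.091 in BPH-1. Most like COL6A2 was its neighbour SPATC1L (r = 0.997), followed by the claudin CLDN3, the annexin ANXA6, the tumour antigen PRAME and the cotransporter SLC12A7. Most like COL6A3 was ITGBL1, an integrin beta-like protein (r = 0.996; 0.190 ± 0.009, 0.304 ± 0.062 and 2.91 ± 0.777 FPKM), followed by TRIM58, SHISA3, ANPEP and SIDT1. ANPEP, the aminopeptidase CD13, was 71.3 ± 6.90 FPKM in PC3 and at most 0.154 on average in the other lines.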

How the data were processed

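Total RNA of 4 libraries each of BPH-1, DU145 and PC3 was sequenced by the study, and groups and replicate numbers were read from the sample titles. The authors deposited one table of normalized values for 58302 genes placed on GRCh38, and 56610 of these loci match GENCODE 29. Its header names no unit; the deposited values have the form of FPKM and are called that here. The submitters' processing notes name CASAVA 1.8, HISAT2 2.1.0 and edgeR without their roles; the counting program, the use of strand and any filter are not given in the sources used here. The gene length behind the FPKM was the summed length of distinct exons: with it, 92.2% to 93.8% of values worth under 20 reads came out whole (within 0.02 reads), against 16.9% to 20.2% with merged exons. Depth and reads were recovered from these steps (12950665 to 16309559 reads a library, median 15341001), which sets the counting error of each value. For 263 genes no length was found, and they were not tested. Column names left 0 columns unassigned. A coding stretch of COL6A1 is not reported here.

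The collagen VI chains, the gene lists and the comparisons were chosen with earlier results of these data known. A test for counts was the plan had the table held counts; since it held FPKM, limma 3.58.1 (R 4.3.3, with trend) was fitted to log2(FPKM + 1), with only the 2 compared lines in a fit, on genes with 10 reads at the median depth in at least 4 libraries and 15 reads in all. Differences on this scale understate the change of low genes. A gene nearly absent from 1 line can pass the filter through the other line alone. Its p-value then adds little to its reads, as for COL6A4P1, for SPATC1L, PCBP3 and PDGFRA against BPH-1, and for RAMP1 in DU145. This list is not complete. Adjusted p-values are Benjamini-Hochberg over all genes tested, and the chains enter no test of their own. Alternatives were no filter, 10 reads in every library, a pseudocount of 0.1, a fit of the 3 lines together, a replicate block, 3 other scalings, voom on recovered reads, a GC correction and leaving out each library; fits with only DU145 replicates 1 and 2, or only 3 and 4, were added after seeing the data. Named genes were the chains, the minor chains, the 3 most abundant genes of each list, the 2 called genes of each list with the largest difference in each comparison, the 5 genes most like each chain, and the nearest protein-coding neighbours. Genes named outside that rule, chosen after their values were seen, are COL18A1, COL1A2, DCN, BGN, MATN2, MATN3, RAMP1, THY1, LUM, CDH1, PDGFRB and TP63. Markers listed as at most 3 reads were also named outside it. The depth recovery and the limma fit were tested on simulated data. Python 3.11.15, numpy 2.4.6, pandas 2.3.3, scipy 1.17.1 and matplotlib 3.10.9 were used.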

Additional observations from a re-analysis of the deposited data

Results flagged for a closer look

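In 185 groups of 4 libraries, the highest or lowest library was compared with the others by Dixon's criterion, and 11 groups passed it, where chance passes about 5% of groups. BPH-1 replicate 2 was the highest library for COL6A2 (0.784 FPKM, the others 0.248 to 0.285), for the protease MMP14 (148.0 FPKM, the others 65.7 to 78.7) and for COL17A1 (105.0 FPKM, the others 91.6 to 93.9). P4HB was highest in PC3 replicate 4, at 116.0 FPKM, with the others at 71.8 to 77.7. RAMP1 was lowest in BPH-1 replicate 2, at 1.72 FPKM, with the others at 2.305 to 2.33. The other 6 rested on few reads: COL6A4P1 in PC3 replicate 1 (0.0122 FPKM, 1 read), KRT14 and THY1 in PC3 replicate 4 (0.0265 and 0.00725 FPKM, 1 read each), TRIM58 and SHISA3 in BPH-1 replicate 4 (0.0397 FPKM from 2 reads and 0.163 FPKM from 5 reads) and FTCD in BPH-1 replicate 1 (0.083 FPKM, 7 reads).

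Among the named genes with calls in both PCa lines against BPH-1, 5 changed in opposite directions, and the difference between PC3 and DU145 was itself tested. On the log2(FPKM + 1) scale PC3 minus DU145 was -3.43 for CSPG4 (limma adjusted p = 4.18e-06), -2.62 for COL4A2 (limma adjusted p = 6.33e-06), -2.29 for COL4A1 (limma adjusted p = 1.04e-06), 5.001 for COL5A2 (limma adjusted p = 3.25e-08) and 5.3 for RAMP1 (limma adjusted p = 6.24e-08). RAMP1, picked after its values were seen, held 0, 0, 4 and 1 reads in DU145. It passed the filter against DU145 through the other line alone, so its p-values with DU145 add little to its reads.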

How the results depend on the processing

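Of 727 values of 48 results under an alternative, 693 moved by less than the spread between libraries or stayed within 1.5 times of the main count, 33 moved further and 1 turned direction. With 10 reads asked of every library, which removes genes absent from one line, the calls in PC3 against BPH-1 were 5 for matrix partners, 1 for fibroblast and muscle markers, 3 for epithelial markers and 5 beside COL6A1 and COL6A2. In DU145 against BPH-1 they were 0 for minor chains, 4 for receptors, 4 for matrix partners, 0 for fibroblast and muscle markers, 3 for epithelial markers and 2 beside COL6A3, and in PC3 against DU145 they were 0 for minor chains, 5 for receptors and 1 for fibroblast and muscle markers. Equal FPKM sums and the GC correction each gave 5 calls beside COL6A1 and COL6A2 in PC3 against BPH-1, and the GC correction gave 2 for fibroblast and muscle markers in DU145 against BPH-1. Beside COL6A1 and COL6A2 in PC3 against DU145, median-of-ratios and upper-quartile scaling each gave 3. Leaving out one library gave 3 to 5 calls there and 5 to 8 for receptors. With DU145 replicates 1 and 2 only, chosen after seeing the data, the log2 ratio of mean COL6A3 was -0.58 between DU145 and BPH-1 (2.35 as reported) and 8.82 between PC3 and DU145 (5.88), and 3 genes were called beside COL6A1 and COL6A2 in PC3 against DU145. With replicates 3 and 4 only, 3 were called there, 3 receptors were called in PC3 against DU145 and 2 fibroblast and muscle markers in DU145 against BPH-1. The log2 ratio of mean COL6A1 between PC3 and BPH-1 was 5.72 after the GC correction (6.27 as reported), and that of COL6A3 was 4.90 with 0.1 added to each FPKM (8.24 without). The ratio of mean COL6A1 to COL6A2 was 1.66 with merged exons and 1.34 with the principal transcript in PC3, and 0.642 with the latter in DU145, lengths chosen after seeing the data. Beyond what is said of construction, the cause was not tested.

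The replicate block changed the calls beside COL6A1 and COL6A2 in PC3 against DU145 to 3, and it ended the call of TNXB in DU145 against BPH-1 (adjusted p = 0.0447, 0.0125 to 0.333 over 20 alternatives, lost in 12 of them, among them those without BPH-1 replicate 1 or 3 or DU145 replicate 1, 3 or 4) and of ANTXR1 in PC3 against DU145 (adjusted p = 0.0435, 0.0141 to 0.149, lost in 9, among them those without DU145 replicate 2 or 4 or PC3 replicate 2, 3 or 4), both by limma. Over all genes it gave 10733, 10131 and 6747 calls in place of 11085, 10666 and 7936. Libraries of equal number did not deviate together throughout. Between PC3 and DU145 their r was -0.46, 0.51, 0.05 and -0.65 for replicates 1 to 4. Libraries of these lines thus shared deviations of either sign. In the comparisons with BPH-1 the r was -0.14 to 0.10. The own number had the highest r for 3, 0 and 1 of 8 libraries in PC3 and BPH-1, DU145 and BPH-1, and PC3 and DU145. The numbers were therefore not taken as pairs. The call of PPIB in DU145 against BPH-1 (limma adjusted p = 0.0289, 0.000497 to 0.265) was lost in 9 of 20 alternatives, among them those without BPH-1 replicate 2, 3 or 4 or DU145 replicate 1, 2 or 4. Depth limits COL6A3 in BPH-1 and DU145, the minor chains and FTCD, which rest on a few reads, and the 4 libraries of a line limit every error given.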
